A study of Yucca flaccida with 12 samples.

Results

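A set of 111 genes, of 185746 in the table, was higher in every variegated library than in any unvariegated library of in vitro leaves of Yucca flaccida 'Golden Sword', an ornamental monocot. Each gene here is a cluster of assembled transcripts. The members were chosen by their values in CPM, the count divided by the library total and multiplied by 1000000. The lowest of the 6 variegated values had to be at least 2 times the highest of the 6 unvariegated ones and at least 1 CPM. More than 3 counts were required over the unvariegated libraries together, and the 150 genes with the highest mean CPM were left out. Of 116 genes that met the ratio and the level, 4 had 3 counts or fewer in unvariegated leaves and 1 was among the 150 most abundant. Because the choice used every library, the difference between variegated and unvariegated leaves is described below and not tested.

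The leaves came from untreated plants kept in vitro, all of the genotype 'Golden Sword' and all at the second youngest leaf of a plant. Messenger RNA of 12 libraries was sequenced, 3 each from the edge (VE) and the centre (VC) of leaves with the variegated phenotype and from the edge (UE) and the centre (UC) of leaves with the unvariegated phenotype. Which zone was pale and how many plants were sampled is not in the labels. Separate plants behind the 3 libraries of a group are not stated either, so a p-value reflects the spread among these libraries and that spread could be technical. Total counts per library lay between 13139086 and 20306020, so that 1 CPM stood for 13.1 to 20.3 counts. In bulk leaf pieces, fewer cells of a type and less RNA per cell cannot be told apart.

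In variegated leaves, zones of different colour lie side by side in a blade. Pale zones are commonly made of cells whose plastids do not develop into ordinary chloroplasts, the green organelles that hold chlorophyll and carry out photosynthesis. Most chloroplast proteins are encoded in the nucleus, and plants are known to adjust nuclear gene expression to the state of their plastids. The deposited identifiers are not paired with gene names or sequences here, so the members are described by level, pattern and length. No leaf marker gene could be looked up, and the labelled tissue was not checked against markers.

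The raised genes spanned a wide range of abundance. Their mean over all 12 libraries ran from 0.734 to 311 CPM, with a median of 10.3 CPM. Of the 111, 56 had a mean of at least 10 CPM, 13 of at least 50 CPM and 6 of at least 100 CPM. Together they held between 0.299% and 0.659% of the counts in the variegated libraries and between 0.0604% and 0.0708% in the unvariegated ones. The mean level in variegated leaves was 8.55 times that in unvariegated leaves for the median member, with a range from 2.79 to 54.5 times. Of the members, 95 had counts in all 6 unvariegated libraries, and 16 were at 0 in 1 to 3 of them. The rule required more than 3 counts over these libraries, so presence in unvariegated leaves was partly set by the choice.

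**Figure D1:**
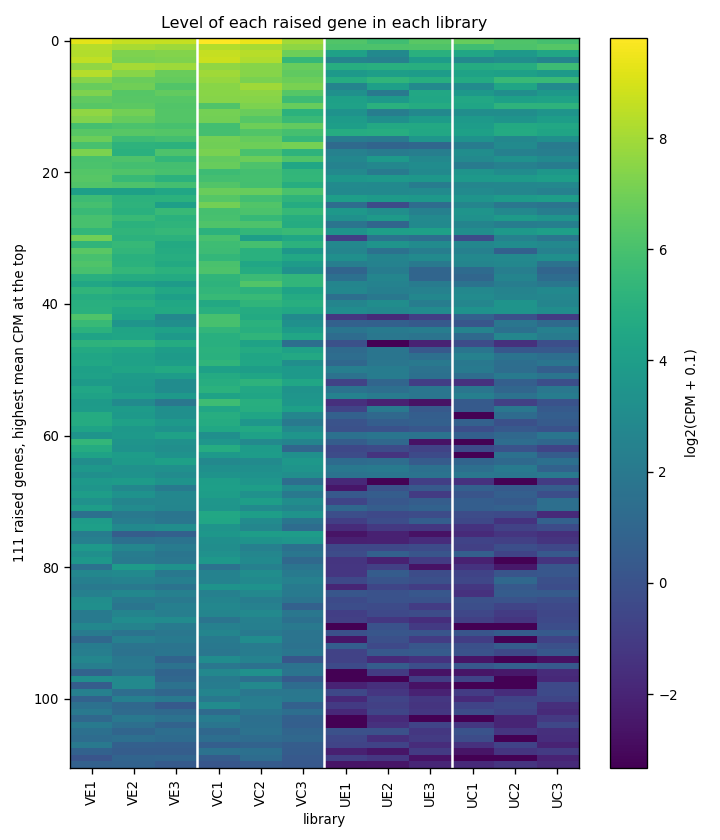
Level of each of the 111 raised genes (rows, ordered by mean CPM) in each of the 12 libraries (columns, white lines between the groups VE, VC, UE and UC), as log2 of CPM plus 0.1. The 6 variegated columns are brighter than the 6 unvariegated ones in every row, as the choice of the genes sets, and VC3 is darker than VC1 and VC2 in many rows.

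The 10 most abundant members ranged from 63.8 to 311 CPM in the mean. Cluster-20123.55077 led them, with 625, 395 and 408 CPM in VE and 895, 697 and 256 CPM in VC. Its unvariegated levels were 75.6, 55.5 and 86.4 CPM in UE and 106, 72.2 and 61.9 CPM in UC. Among the variegated libraries VC3 was the lowest and VC1 the highest, a spread of 3.49 times inside the variegated leaves. Per gene length it was also the most abundant member, at a mean of 814 FPKM (fragments per kilobase and per 1000000 reads) in variegated leaves against 112 FPKM in unvariegated ones. Cluster-20123.55736 came next on that scale with 695 FPKM against 52.5 FPKM, and Cluster-20123.58434 had 287 FPKM against 21.5 FPKM.

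Cluster-20123.55736 had 309, 154 and 167 CPM in VE, 401, 333 and 120 CPM in VC, 17.97, 7.43 and 32.3 CPM in UE and 22.0, 13.3 and 21.4 CPM in UC. VE1, VC1 and VC2 were its high libraries and VC3 the low one. Cluster-20123.52092 varied more: it had 373, 144 and 156 CPM in VE and 426, 299 and 42.3 CPM in VC, against 5.34 to 15.3 CPM over the unvariegated libraries. Its VC3 value was 10.1 times below that of VC1. Cluster-20123.50219 was the steadiest of the 4 genes with the highest means, with 329, 269 and 233 CPM in VE, 311, 270 and 188 CPM in VC and 54.6 to 82.4 CPM in unvariegated leaves.

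The other 6 of these 10 genes were Cluster-20123.30952, Cluster-20123.59690, Cluster-20123.55420, Cluster-20123.58434, Cluster-20123.59851 and Cluster-20123.56016. Cluster-20123.30952 was higher in mean at the edge, with 197, 266 and 237 CPM in VE and 196, 173 and 109 CPM in VC. Cluster-20123.58434 had the opposite order, with 109, 124 and 75.8 CPM in VE and 177, 248 and 141 CPM in VC. All 3 of its VC values lay above its VE values, but it was not called in the test of the zones below. Cluster-20123.59690 had 328, 177 and 113 CPM in VE and 241, 174 and 97.1 CPM in VC, over 13.3 to 18.5 CPM in unvariegated leaves.

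**Figure D2:**
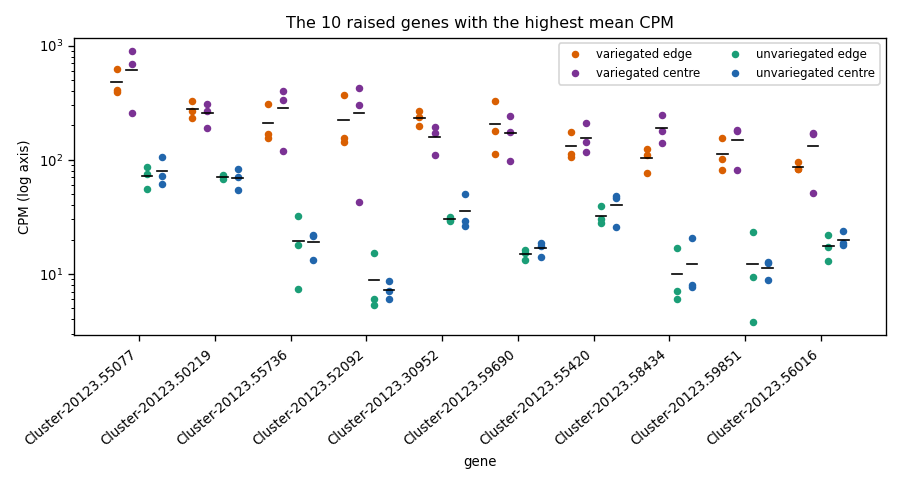
CPM on a log axis of the 10 raised genes with the highest mean CPM, with 1 point per library and a black bar at the mean of each group of 3. The variegated points lie above all unvariegated points of the same gene, and the lowest variegated centre point is VC3 for all 10 genes shown.

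The widest gaps between the phenotypes belonged mostly to genes of low abundance. The ratio of the lowest variegated to the highest unvariegated value had a median of 2.60 and reached 6.03, with 35 members at 3 or more, 16 at 4 or more and 5 at 5 or more. Cluster-20123.31473 had the highest ratio: it ranged from 7.09 to 24.2 CPM over the variegated libraries and from 0.796 to 1.18 CPM over the unvariegated ones. Cluster-20123.39901 had 13.5, 14.7 and 10.8 CPM in VE and 16.1, 11.8 and 2.5 CPM in VC. Over the 6 unvariegated libraries it had 23 counts in all, with 2 libraries at 0, against 1143 counts over the variegated ones. Cluster-20123.52100 had 685 counts over the variegated and 22 over the unvariegated libraries, and Cluster-20123.55726 had 711 and 28. Cluster-20123.18052 was more even, with 3.57 to 7.08 CPM in variegated and 0.381 to 0.716 CPM in unvariegated leaves. Cluster-20123.59690, at a ratio of 5.25, was the only one of these 6 genes with a mean above 10 CPM.

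At the threshold itself, the members just inside were Cluster-20123.54929, Cluster-20123.34694 and Cluster-20123.50220, with ratios of 2.001, 2.002 and 2.004. Just outside were Cluster-20123.89041, Cluster-20123.59850 and Cluster-29372.3, with ratios of 1.998, 1.995 and 1.989. For Cluster-20123.54929 the lowest variegated value was 22.3 CPM and the highest unvariegated value 11.2 CPM. For Cluster-20123.59850 these were 9.177 CPM and 4.6 CPM.

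Counts of the members past an adjusted p of 0.05 in the phenotype comparisons repeat what chose them. In the quasi-likelihood test of edgeR, adjusted by Benjamini and Hochberg's method over 59225 genes, 106 of the 111 were called higher in VC than in UC, where 2.67% of all tested genes were. At the edge 108 were called higher in VE than in UE, against 3.32% of all. The median log2 fold change of the members was 3.07 for VC against UC and 3.31 for VE against UE. Over all genes tested the median was -0.04 in both comparisons. All 111 passed the filter on low counts.

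The height of the raised genes was uneven among the variegated libraries. Set against the mean of the 6 unvariegated libraries, the median member was 9.60 times higher in VC1, 8.84 times in VC2 and 4.54 times in VC3. In the edge libraries it was 7.88 times higher in VE1, 6.24 times in VE2 and 5.26 times in VE3. VC1, VC2 and VE1 thus stood high and VC3 and VE3 low, across both zones. The 6 unvariegated libraries lay between 0.876 and 1.09 times their own mean. With TMM-scaled library sizes, which remove a general shift between libraries, the lowest and highest variegated libraries were still VC3 at 4.2 times and VC1 at 10.6 times. The edge levels moved up, to 9.91 times in VE1, 7.79 times in VE2 and 6.47 times in VE3. By library totals the median gene averaging 1 CPM or more stood at 0.748 to 0.825 times in VE and at 0.887 to 1.08 times in VC. Folds by library totals thus set the edge low relative to the centre.

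In 91 of the 111 members VC3 was the lowest of the 3 VC libraries (82.0%), against 24.5% of the 42096 genes whose mean was 1 CPM or more. VE3 was the lowest of the 3 VE libraries in 75 members (67.6%), against 26.2% of those genes. Both held together in 62 members (55.9%), against 10.1%. With TMM scaling the count for VC3 was 100 of 111, against 37.9% of the 42096 genes. VC1 was the highest variegated library for 40 members, VE1 for 30, VC2 for 27, VE2 for 9, VC3 for 3 and VE3 for 2. Of the 33 members whose estimated counts were whole numbers in all 12 libraries, 25 had VC3 as the lowest VC library. For the tally of highest libraries and for these whole-count members, shares over all genes were not counted.

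The spread between replicates was wider for the raised genes than for genes in general, in all 4 groups. The median SD of log2 CPM (TMM-scaled, plus 0.1) within VC was 0.60 for the members and 0.32 for the 42096 genes, and within VE it was 0.48 and 0.29. In unvariegated leaves it was 0.49 and 0.31 in UE and 0.48 and 0.31 in UC. In the 68 members with an unvariegated mean of at least 1 CPM, it was 0.59 in VC, 0.43 in VE, 0.39 in UE and 0.39 in UC. The members and the 42096 genes were not matched for level, and low counts can widen this measure. The median member stood at 1.43 CPM (UE3) to 2.13 CPM (UC2) in the unvariegated libraries. These values were not tested.

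The mirror image of the rule, with all its conditions exchanged between the phenotypes, picked 115 genes whose lowest unvariegated value was at least 2 times their highest variegated one. These lowered genes followed the same libraries in the opposite direction. Against the unvariegated mean, the median lowered gene stood at 0.0702 times in VC1, 0.131 in VC2, 0.244 in VC3, 0.0942 in VE1, 0.170 in VE2 and 0.194 in VE3. VC1 was farthest from the unvariegated level and VC3 and VE3 nearest to it in both sets. By library totals VE1 came second among the lowered genes, and VC2 among the raised genes. With TMM scaling VE1 was second in both sets, with the raised genes at 9.91 times the unvariegated mean in VE1 and 8.83 times in VC2. VC3 was the highest VC library in 92 of the 115 lowered genes (80.0%), against 51.9% of the 42096 genes. With TMM scaling these shares were 75.7% and 36.7%, and VC3 and VE3 were then level at 0.226 times the unvariegated mean. Both sets were picked from these 12 libraries, so their opposite direction between phenotypes is fixed. The order of the libraries inside the variegated group was not a condition of either rule, but it was not independent of the choice. Membership of the raised genes rested on their lowest variegated value, which was that of VC3 in 55 of them. The 42096 genes were not picked in this way. The order shared by both sets is therefore described and was not tested.

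**Figure D3:**
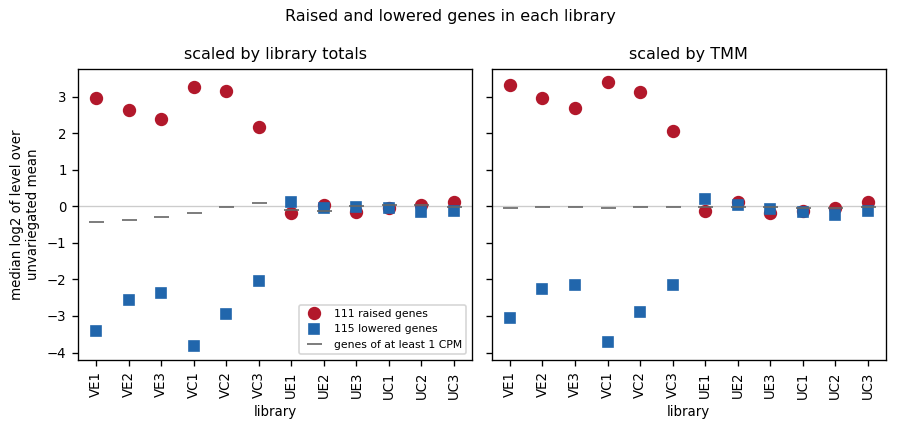
Median log2 of the level in each library over the mean of the 6 unvariegated libraries, for the 111 raised genes (red circles), the 115 lowered genes (blue squares) and all genes averaging 1 CPM or more (grey bars), scaled by library totals on the left and by TMM on the right. VC3 is the variegated library in which the raised genes are nearest to 0 in both panels, at 2.18 on the left and 2.07 on the right.

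The rule did not compare the zones, but it required each member to be raised in both. Genes raised in the centre alone or at the edge alone were thus left out. The zone tests below, with the interaction, hold for members picked under that limit and not for raised genes in general. Raised genes mostly showed no called difference between the centre and the edge of variegated leaves. In VC against VE, 3 of the 111 were called, all higher in the centre (2.70%), where 0.383% of all 59225 genes were called higher and 0.954% in either direction (edgeR quasi-likelihood, Benjamini-Hochberg adjusted p below 0.05). At an unadjusted p below 0.05 the share was 12.6% of the members and 12.4% of all genes. The 108 members not called had log2 fold changes from -1.66 to 1.63, and the median standard error over all members was 0.45. A 2-fold zone difference could therefore be missed in many of them.

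The median log2 fold change of the members was -0.21 in VC against VE, with 44 of 111 above 0. Scaling changed this direction: when library totals alone were used, the median of all genes moved to 0.33 and that of the members to 0.11, with 65 of 111 above 0. Under both scalings the members' median lay below that of all genes. It was 0.06 when VC3 was left out, against -0.03 for all genes.

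Cluster-20123.52801 was the clearest of the 3 zone genes. It had 16.6, 17.3 and 21.8 CPM in VE and 113, 107 and 65.0 CPM in VC, with no overlap between the zones. In unvariegated leaves it stood at 7.29, 7.49 and 7.54 CPM in UE and 7.69, 6.32 and 5.42 CPM in UC. Its log2 fold change was 2.05 in VC against VE (SE 0.24, adjusted p = 0.00407 by edgeR's quasi-likelihood fit). It was called under all 21 alternatives, with adjusted p up to 0.0426. In UC against UE it was -0.32 (SE 0.24, adjusted p = 1 in edgeR).

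Cluster-20123.33689 had the same kind of pattern at a lower level, with 2.79, 3.80 and 3.38 CPM in VE and 23.4, 16.3 and 10.5 CPM in VC. It had 0.197 to 0.803 CPM over the unvariegated libraries, 60 counts in all. The log2 fold change in VC against VE was 2.04 (SE 0.39, adjusted p = 0.0353 by edgeR's quasi-likelihood fit). That call was lost without VE1, VE2, VE3, VC1, VC2, UE1 or UC2 and with only the groups compared, with adjusted p up to 0.143 (range over all alternatives 3.45e-05 to 0.143).

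Cluster-20123.55727 rose in the centre by 2.20 on the log2 scale (SE 0.42, adjusted p = 0.0353 by edgeR's quasi-likelihood fit). It had 4.41, 1.34 and 1.52 CPM in VE and 12.1, 15.6 and 15.2 CPM in VC. Unlike most members, it was not low in VC3. Its unvariegated levels were 0.0617, 0.129 and 0.0551 CPM in UE and 0.199, 0.304 and 0.246 CPM in UC, from 16 counts in all, with no overlap between these zones either. The difference in unvariegated leaves was 1.44 (SE 0.74, adjusted p = 0.967 in edgeR). The call in variegated leaves held without VE1, UE2 or UE3 and was lost without any 1 of the other 9 libraries and with only the groups compared, with adjusted p up to 0.168 (range over all alternatives 4.47e-05 to 0.168).

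Between the zones of unvariegated leaves, 0 of the 111 members were called in edgeR, where 0.00169% of all genes were. At an unadjusted p below 0.05 there were 7 members, 6.31% against 5.22% of all genes. DESeq2 called 1 member, Cluster-20123.59183 (log2 fold change 1.34, SE 0.33, adjusted p = 0.0321 in DESeq2 and 0.776 in edgeR). This gene was picked out after its values were seen. It had 2.22, 1.81 and 1.98 CPM in UE and 4.51, 7.76 and 4.33 CPM in UC, and 62.7, 35.6 and 34.8 CPM in VE against 125, 122 and 132 CPM in VC. In both phenotypes every centre value lay above every edge value, and VC3 was its highest library.

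**Figure D4:**
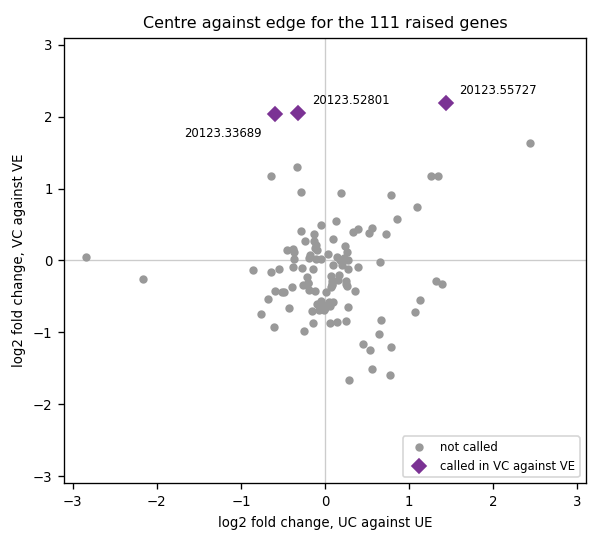
Log2 fold change of centre against edge for the 111 raised genes, in unvariegated leaves (UC against UE, horizontal axis) and variegated leaves (VC against VE, vertical axis), from edgeR. The 3 genes called in variegated leaves (purple diamonds) lie at 2.04 to 2.20 on the vertical axis and on both sides of 0 on the horizontal axis.

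The interaction, that is the centre-edge difference of a member in variegated leaves minus that in unvariegated leaves, was also tested. Cluster-20123.52801 was the only member called (0.901% of the members), where 0.0355% of all genes were called with a positive interaction and 0.0962% in either direction. Its interaction was 2.37 on the log2 scale (SE 0.34, adjusted p = 0.0311 by edgeR's quasi-likelihood fit). Its log2 difference between phenotypes was 3.97 in the centre and 1.60 at the edge, values that the rule used in part. The interaction call was lost without any 1 library other than VC1 or VC3, and with the replicate number as a term, while the value stayed between 2.16 and 2.64 (adjusted p 7.44e-08 to 0.119 over all alternatives). For Cluster-20123.33689 the interaction was 2.63 (SE 0.62, adjusted p = 0.199 in edgeR, range over alternatives 0.00220 to 0.415). For Cluster-20123.55727 it was 0.76 (SE 1.04, adjusted p = 0.910 in edgeR).

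Some raised genes occurred in short runs of neighbouring identifiers. The share of such runs among all genes or the lowered genes was not counted, so the runs are not read as particular to this set. Within 20 numbers of each other in the same assembly group, 30 of the 111 members formed 12 runs, of which 9 were pairs and 3 held 3 to 5 members. Whether neighbouring numbers mark similar sequences is not given in the sources used here, and reads shared among such clusters could not be separated. The longest run held Cluster-20123.52092, Cluster-20123.52096, Cluster-20123.52097, Cluster-20123.52099 and Cluster-20123.52100. All 5 had VC3 as their lowest VC library, and VC1 or VE1 as their highest. Cluster-20123.52096 had 151, 31.9 and 69.9 CPM in VE and 143, 65.7 and 35.3 CPM in VC, against 4.33 to 8.62 CPM in unvariegated leaves. Cluster-20123.52099 fell to 1.91 CPM in VC3 from 28.1 CPM in VC1, near its unvariegated levels of 0.496 to 0.913 CPM.

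The second run joined Cluster-20123.50217, Cluster-20123.50219, Cluster-20123.50220 and Cluster-20123.50233. The first of them varied 1.42 times over the variegated libraries, with 83.0, 84.2 and 79.5 CPM in VE and 59.2, 76.7 and 60.5 CPM in VC, over 17.3 to 28.9 CPM in unvariegated leaves. Cluster-20123.50233 behaved otherwise, with 1.73, 3.12 and 1.75 CPM in VE and 6.95, 9.89 and 3.25 CPM in VC. Neighbouring identifiers therefore did not always share a zone pattern.

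The third run, Cluster-20123.55726, Cluster-20123.55727 and Cluster-20123.55736, was not uniform either. Cluster-20123.55726 resembled Cluster-20123.55727, with 5.14, 2.74 and 3.15 CPM in VE and 9.25, 10.5 and 11.9 CPM in VC. In both, all 3 VC values lay above all 3 VE values, while Cluster-20123.55736 was lowest in VC3. The log2 fold change of Cluster-20123.55726 in VC against VE was 1.17 (SE 0.28, adjusted p = 0.0877 in edgeR), and DESeq2 gave it an adjusted p of 0.0216.

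**Figure D5:**
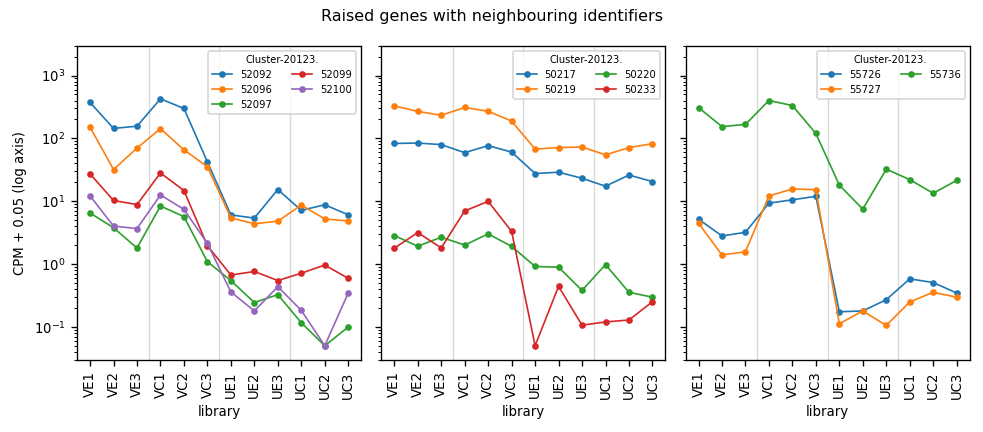
CPM plus 0.05 on a log axis in each of the 12 libraries for the 3 longest runs of raised genes with neighbouring identifiers, with 1 coloured series per gene and lines drawn only to join the points of a gene. In the left panel all 5 genes drop in VC3 relative to VC1 and VC2, and in the right panel Cluster-20123.55726 and Cluster-20123.55727 do not.

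Genes near the members in the identifier order also leaned upward more often than genes in general. Within 5 numbers of a member lay 417 other genes averaging 1 CPM or more. Of these, 88 (21.1%) had a log2 ratio of variegated to unvariegated mean CPM (plus 0.1) of at least 1, against 4.83% of the 42096 genes at that level. A log2 ratio of -1 or less was found in 18 (4.32%), against 7.32%. The median log2 ratio of the neighbours was 0.00 and that of the 42096 genes -0.16. These shares are descriptions, since clusters that share reads are not independent.

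The median raised gene was shorter than the median of all genes of at least 1 CPM. These genes were not matched to the members for level, and the length of the lowered genes was not computed. A short length is therefore not read as particular to this set. Effective length, derived from the ratio of count to deposited FPKM, had a median of 685 bases over the 111 members and of 1044 bases over the 42096 genes. The shortest member was Cluster-20123.26615 at 76.8 bases and the longest Cluster-20123.80804 at 2791 bases, and 15 members were under 300 bases. The largest assembly group, the clusters whose identifiers share a first number with most members, held 100 of the 111 members (90.1%), a share close to its 90.2% of the 42096 genes. Estimated counts were not whole in 50.9% of the members' values and in 62.1% of the values of those genes, so part of the members' reads had been divided among clusters.

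The 11 members outside the largest assembly group varied in form. Cluster-60624.1, for example, had 17.98, 14.8 and 15.3 CPM in VE and 25.9, 21.2 and 13.6 CPM in VC, over 2.52 to 4.52 CPM in unvariegated leaves. Cluster-62520.1 had the lowest VC3 value relative to VC1 among these 11, with 27.3, 11.9 and 3.88 CPM in VC after 26.8, 18.3 and 12.99 CPM in VE. Cluster-40738.0 was set apart by VE1, with 42.0, 10.9 and 9.96 CPM in VE and 11.9, 7.10 and 5.90 CPM in VC. Cluster-40721.0 and Cluster-40721.2 shared a group, and the first was nearly level over the variegated libraries, at 2.08 to 2.67 CPM.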

How the data were processed

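RNA was measured in 12 libraries, 3 in each of 4 groups taken from the sample titles, and every value column of both tables matched 1 library. The authors deposited expected counts and FPKM values per assembled gene cluster. CASAVA 1.8, Bowtie2 and RSEM were used, per the submitters' processing notes; how transcripts were assembled and clustered is not given in the sources used here. RSEM divides reads that match several clusters, so similar clusters are uncertain as separate units. No step that marks strand is described in the labels' protocols, so overlapping transcripts on opposite strands cannot be told apart. The deposited FPKM values divide by gene length and library total.

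CPM values are expected counts over the library total. For tests, expected counts were rounded, and filterByExpr (minimum count 10, minimum total 15) kept 59225 genes. edgeR 4.0.16 (R 4.3.3) was run with TMM scaling and robust glmQLFit and glmQLFTest on all 12 libraries at once, with Benjamini-Hochberg adjusted p below 0.05. Standard errors are the absolute log2 fold change over the square root of F, and can be too small for genes near 0 counts. The fit was also run on simulated data, with the same dispersion for every gene. Changes were placed only in VC, in genes of higher counts. That run does not cover members with few counts, and no result above rests on it. The members and lists were chosen with earlier results of these data known. Genes named by rule were the 10 of highest mean CPM, the 6 of highest ratio and the 3 on each side of the ratio threshold. Those called in VC against VE, in UC against UE or in the interaction were named too. Genes named as neighbours, as length extremes or as members outside the largest assembly group were chosen after their values were seen. So were Cluster-20123.59183, Cluster-20123.50217, Cluster-20123.32255 and Cluster-20123.46543.

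The alternatives tried were scaling by RLE or by library totals alone, a filter of 1 CPM in 3 libraries or none, DESeq2 1.42.0, limma 3.58.1 on log2 FPKM with a pseudocount of 1 or 0.1, the replicate number as a block, fits of just the groups compared, and each library left out. The TMM-scaled level of each library was added after the data were seen. Figures were drawn with matplotlib 3.10.9. Gene lists for leaf cell types were not applied, since identifiers were not paired with names here.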

Additional observations from a re-analysis of the deposited data

Results flagged for a closer look

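Cluster-20123.52801 differed between the phenotypes in its centre-edge difference: the log2 difference in variegated leaves exceeded that in unvariegated leaves by 2.37 (edgeR's quasi-likelihood test, adjusted p = 0.0311), and VC was above VE in all 3 libraries of each. Its counts were whole numbers in all 12 libraries.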

How the results depend on the processing

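The number of raised genes depended on the ratio and on 1 library. It was 273 at a ratio of 1.5, 35 at a ratio of 3 and 65 at a minimum of 5 CPM. Leaving out a library can only loosen the ratio and the level, though it can lower the sum of unvariegated counts. It gave 116 to 242 genes, with 242 without VC3 and at most 142 without any other, and all 111 members were kept each time. The remaining settings gave 115 to 132. With TMM-scaled library sizes 123 genes passed, 96 of them among the 111.

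In VC against VE the count of 3 was 6 with library totals only and with FPKM plus 1 or plus 0.1, 5 with no filter, 8 in DESeq2 and 1 with only the groups compared. Of the 8 in DESeq2, 6 were higher in the centre and 2 lower. The lower ones were Cluster-20123.46543 (log2 fold change -0.819, adjusted p = 0.0390 in DESeq2) and Cluster-20123.50217 (-0.648, adjusted p = 0.0220 in DESeq2). Without 1 library it was 1 to 3, and 1 without VE2, VE3, VC1, VC2, UE1 or UC2. In UC against UE the count of 0 was 1 with no filter and 1 in DESeq2. The interaction count of 1 was 4 with no filter and in DESeq2, 2 with FPKM plus 1, and 0 to 1 without 1 library. The phenotype counts of 106 and 108 ranged over 71 to 110 and 77 to 111. Among the 21 members that the rule for named genes picked, no zone value that was called, in edgeR or under an alternative, changed sign.

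With the replicate block the counts were 3 in VC against VE, 0 in UC against UE and 0 in the interaction, and 99 and 103 in the phenotype comparisons. The block gave libraries of equal number a shared effect across all groups. It therefore does not show what a pairing of edge and centre inside a phenotype would do. The numbers were not taken to pair the libraries: deviations from group means correlated at 0.107, 0.0169 and 0.130 between VE and VC of equal number and at 0.104, 0.0696 and -0.0465 between UE and UC. Each VE library correlated best with the VC library of its own number, but for VE2 only by 0.0169 against 0.0161, and libraries of different number reached 0.134 (VC1 with UE2). Depth limits the low members most, since 1 CPM is 13.1 to 20.3 counts, and counting error is not the only error.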

Other observations

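The 1 gene that met the other conditions but was among the 150 most abundant was Cluster-20123.55629, with 1361, 1230 and 1208 CPM in VE, 1488, 1435 and 1002 CPM in VC, 277 to 492 CPM in UE and 306 to 471 CPM in UC. VC3 was again its lowest variegated library.

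VC3 alone kept 131 further genes from meeting the rule. In these the lowest of the other 5 variegated libraries was 2.60 times the highest unvariegated value in the median, and VC3 was 1.51 times that value. In 18 of them VC3 was at or below the highest unvariegated library. These genes were picked by their VC3 values, so the numbers only describe how far VC3 stood from the other variegated libraries.

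Cluster-20123.32255, picked out after its values were seen, had 21.5, 17.2 and 14.5 CPM in VE and 36.3, 76.0 and 39.4 CPM in VC, against 4.30 to 6.17 CPM in UE and 3.05 to 4.57 CPM in UC. Its zone difference in variegated leaves was 1.18 (SE 0.30, adjusted p = 0.104 in edgeR) and passed in DESeq2 (adjusted p = 0.0109). Cluster-20123.46543, also picked out after its values were seen, had a negative interaction of -1.5 (SE 0.35, adjusted p = 0.199 in edgeR), with an adjusted p of 0.0132 in DESeq2.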
